A study of Mus musculus with 8 samples.

Results

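PPAR alpha is a nuclear receptor for fatty acids, and 7 genes are described here: Ppara, which encodes it, and 6 classic direct targets, Cpt1a, Pdk4, Angptl4, Plin2, Creb3l3 and Vnn1. They were chosen by gene symbol from the 34745 genes of each table, with earlier results of these data known, and all 7 were found once in every table. RNA was sequenced from intestinal crypts of WT (wild-type) C57BL/6 mice on day 5. Of the 8 libraries 4 were labelled DSS+CA, meaning dextran sulfate sodium (DSS) together with cholic acid (CA, a bile acid made by the liver), and 4 were labelled DSS. DSS damages the intestinal epithelium and brings on colitis, so both groups share that damage and neither is an uninjured baseline. Gut segment, dose, route and whether replicates came from separate animals are not in the labels. The p-values therefore rest on a spread between libraries that may be technical.

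PPAR alpha binds DNA as a heterodimer with a retinoid X receptor (RXR) at a PPAR response element, a direct repeat of the hexamer AGGTCA with a spacer base between the copies. When fatty acids or their derivatives bind it, it switches on genes for fatty acid uptake, transport into mitochondria, oxidation and ketone body production. In the small intestine it is best known in the absorptive enterocyte, where dietary fat supplies its ligands.

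The coordinates given here are the deposited ones, on GRCm38 (mm10), and all 7 genes are protein coding in GENCODE M21. For Cpt1a and Angptl4 the coordinates in GENCODE M21 differ from these. Ppara (ENSMUSG00000022383) lies on chromosome 15 from 85734983 to 85802819 on the plus strand. Cpt1a (ENSMUSG00000024900) lies on chromosome 19 from 3323301 to 3385732, plus strand. Pdk4 (ENSMUSG00000019577) lies on chromosome 6 from 5483351 to 5496309, minus strand. Angptl4 (ENSMUSG00000002289) lies on chromosome 17 from 33773750 to 33781575, minus strand. Plin2 (ENSMUSG00000028494) lies on chromosome 4 from 86648386 to 86670060, minus strand. Creb3l3 (ENSMUSG00000035041) and Vnn1 (ENSMUSG00000037440) lie on chromosome 10, from 81084324 to 81098874 on the minus strand and from 23894688 to 23905343 on the plus strand. By the coordinates of GENCODE M21 no other gene in it overlapped any of the 7, on either strand.

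Promoter windows from RefSeq (GRCm38.p6, 250 bases before a gene's start and 50 bases from it on) were at hand for 5 of the 7 genes, in 6 windows, since Creb3l3 has 2 starts. They were searched on both strands for the PPAR element, written as AGGTCA, any base (N) and AGGTCA again, with up to 2 mismatches, which 3.86% of all 32851 windows held, and for the single hexamer AGGTCA, which 16.3% held and which can lie inside a match to the longer element. A window of Plin2 and a window of Creb3l3 held a match with 2 mismatches, and these windows are printed with the match in capitals. The Plin2 match starts at position -225 from the gene's start and reads AGGTCAGGGGTCC on its own strand, which is opposite to the gene. The Creb3l3 match starts at position -209 from the downstream of its 2 starts and reads AGGGGAGAGGTCA on the gene's strand. The windows of Ppara and Cpt1a are printed because these genes had the highest correlation of any pair described here. Neither came within 2 mismatches of the element, and Cpt1a held the single hexamer, in capitals, on the opposite strand at position -94. The Ppara window belongs to a RefSeq start that lies inside the gene as placed above, so it does not cover the bases before the start given there. The windows of Pdk4 and of the upstream start of Creb3l3 held neither. A match is a run of letters and no evidence of binding, and no match says only that the letters are not in this window.
Plin2, chr4:86670010-86670309, minus strand: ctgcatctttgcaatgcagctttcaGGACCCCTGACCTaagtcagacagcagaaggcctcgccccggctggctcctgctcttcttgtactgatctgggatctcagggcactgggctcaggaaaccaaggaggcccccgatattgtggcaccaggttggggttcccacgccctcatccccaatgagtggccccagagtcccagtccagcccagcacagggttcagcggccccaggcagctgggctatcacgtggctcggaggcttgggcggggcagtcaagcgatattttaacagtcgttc
Creb3l3, chr10:81092542-81092841, minus strand: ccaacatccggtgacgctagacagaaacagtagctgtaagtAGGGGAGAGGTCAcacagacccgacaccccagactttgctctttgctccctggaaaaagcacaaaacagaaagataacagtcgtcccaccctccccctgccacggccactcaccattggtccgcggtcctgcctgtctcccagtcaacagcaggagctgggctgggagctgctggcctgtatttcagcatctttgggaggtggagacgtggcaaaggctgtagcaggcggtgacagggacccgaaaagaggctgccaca
Cpt1a, chr19:3323051-3323350, plus strand: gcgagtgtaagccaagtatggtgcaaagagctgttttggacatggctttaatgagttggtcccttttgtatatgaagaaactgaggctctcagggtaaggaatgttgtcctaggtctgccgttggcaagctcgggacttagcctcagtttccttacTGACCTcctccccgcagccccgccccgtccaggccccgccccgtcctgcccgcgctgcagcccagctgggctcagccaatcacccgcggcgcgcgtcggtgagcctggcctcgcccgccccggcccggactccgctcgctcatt
Ppara, chr15:85735526-85735825, plus strand: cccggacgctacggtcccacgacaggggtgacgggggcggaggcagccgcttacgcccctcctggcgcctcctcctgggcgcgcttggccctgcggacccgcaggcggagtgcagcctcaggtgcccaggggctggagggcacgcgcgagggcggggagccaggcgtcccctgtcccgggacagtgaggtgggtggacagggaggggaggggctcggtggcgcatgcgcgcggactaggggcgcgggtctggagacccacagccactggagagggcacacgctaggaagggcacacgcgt

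Libraries held 13334012 to 17973196 counts. Epithelial markers were even, at 10892 to 11590 CPM in DSS+CA and 10495 to 11915 CPM in DSS, summed over 9 genes, where CPM are counts scaled to a common library size by TMM, a method that evens out library composition. Enterocyte markers (12 genes, 36904 to 101455 CPM in DSS+CA and 34944 to 81315 CPM in DSS) far exceeded crypt stem cell markers (8 genes, 299.9 to 764 CPM in DSS+CA and 462 to 1647 CPM in DSS), although the label is crypts. Of 8 genes listed as colonocyte markers Car1 had 0 counts in all 8 libraries and Hoxb13 had 0 counts in DSS+CA and 2 in DSS. However, 5 of the 8 were high enough to be tested. Of these Car4 (14321 counts in DSS+CA and 7397 in DSS) and Slc26a3 (13994 and 8650) had more counts in DSS+CA. Saa1 (1285 counts in DSS+CA and 2024 in DSS), Ceacam20 (1936 and 5891) and Cyp2c55 (693 and 2995) had fewer. The whole list summed to 437 to 832 CPM in DSS+CA and 408 to 503 CPM in DSS. The mean length of a counted gene, taken as a harmonic mean over all counts of a library, ran from 1445 to 2412 bases in DSS+CA and from 1423 to 2234 bases in DSS. DSS+CA 3, DSS 2 and DSS 3 were the shortest on this axis, and the other 3 DSS+CA libraries lay above DSS 2, DSS 3 and DSS 4. Mitochondrial genes took 9.72, 14.1, 20.5 and 13.2% of counts in DSS+CA 1 to 4, against 16.2, 27.7, 17.8 and 19.8% in DSS 1 to 4. Both measures thus moved in part with the groups, with DSS+CA 3 among the DSS libraries, and their part in the results was not tested beyond the fit with length as a covariate. In the fit over all 9913 genes tested, 5 were higher (0.0504%) and 18 lower (0.182%) in DSS+CA.

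None of the 7 genes differed past the threshold between DSS+CA and DSS. The fit was edgeR's quasi-likelihood test over all genes tested, with an adjusted p of 0.05 as the threshold, and it called 0.232% of all genes. DESeq2 called 0 of the 7 as well, and 2.22% of all genes. At an unadjusted p below 0.05 edgeR gave 2 of the 7, Angptl4 above and Vnn1 below, against 7.64% of all genes (2.91% above and 4.73% below). Of the 7 log2 fold changes (DSS+CA against DSS) 5 were above 0, with a median of 0.49, against 51.9% of all genes above 0 and a median of 0.02. The groups overlapped in all 7 genes, whereas they did not overlap in 6.05% of all genes (3.24% higher and 2.81% lower). All 7 genes passed the filter on low values, which asked for a deposited FPKM of 1 or more in 4 or more libraries. FPKM is the count scaled to both the gene's length and the library's total.

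**Figure D1:**
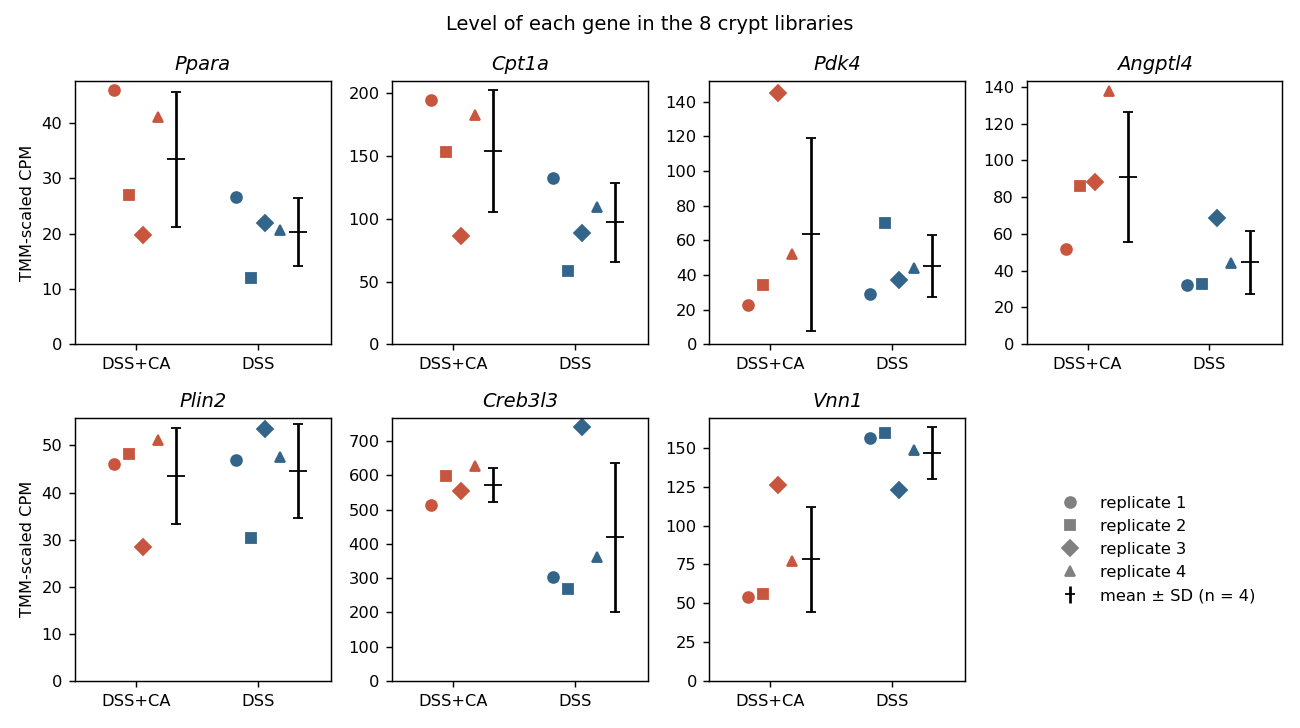
Level of each of the 7 genes (TMM-scaled CPM, linear axis from 0) in the 4 DSS+CA libraries (left, red) and the 4 DSS libraries (right, blue), with a symbol per replicate and the mean ± SD in black. Angptl4 averaged 91.0 CPM in DSS+CA and 44.5 CPM in DSS, Vnn1 averaged 78.3 CPM in DSS+CA and 147 CPM in DSS, and DSS+CA 3 alone reached 145 CPM of Pdk4.

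Levels between genes were compared per length, on the deposited FPKM. Creb3l3, a transcription factor of the endoplasmic reticulum membrane that promotes triglyceride clearance, was the highest of the 7 in 8 of 8 libraries, at 163 ± 37.6 FPKM in DSS+CA and 101 ± 44.9 FPKM in DSS (SD, n = 4 each). The receptor gene Ppara was the lowest in 7 of 8 libraries, at 6.27 ± 3.21 FPKM in DSS+CA and 3.30 ± 1.61 FPKM in DSS; in DSS+CA 1 Pdk4 was lower. Between these lay Cpt1a (40.7 ± 18.7 FPKM in DSS+CA and 22.4 ± 11.9 FPKM in DSS) and Vnn1 (32.6 ± 5.77 FPKM in DSS+CA and 57.6 ± 16.3 FPKM in DSS). Angptl4, Pdk4 and Plin2 averaged 18.6, 14.8 and 9.28 FPKM in DSS+CA, and 7.87, 10.1 and 8.16 FPKM in DSS. In both groups the gaps between neighbours among these 3 genes were smaller than the SD of the higher gene, 8.38 FPKM for Angptl4 and 8.60 FPKM for Pdk4 in DSS+CA, and 2.28 FPKM for Pdk4 and 2.83 FPKM for Plin2 in DSS. The order of Cpt1a and Vnn1 differed between libraries. Cpt1a exceeded Vnn1 in 3 of 4 DSS+CA libraries, at 2.03, 1.53, 0.385 and 1.33 times its FPKM in DSS+CA 1 to 4, and in 0 of 4 DSS libraries, at 0.476, 0.205, 0.406 and 0.412 times in DSS 1 to 4. This pair was picked after its values were seen, and DSS+CA 3 lay within the DSS range.

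Ppara encodes the receptor itself. It was at 45.9, 27.0, 19.7 and 41.1 CPM in DSS+CA 1 to 4, against 26.7, 12.1, 21.9 and 20.6 CPM in DSS 1 to 4. All DSS+CA libraries but DSS+CA 3 lay above every DSS library, and DSS+CA 3 lay below 3 of the 4 DSS libraries. The means were 33.4 ± 12.2 CPM in DSS+CA and 20.3 ± 6.10 CPM in DSS (SD, n = 4 each). The log2 fold change was 0.72 (95% interval -0.06 to 1.5, SE 0.355, edgeR adjusted p = 0.705).

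Cpt1a encodes carnitine palmitoyltransferase 1A, the outer mitochondrial membrane enzyme that commits long-chain fatty acids to oxidation. It was at 195, 153, 86.5 and 183 CPM in DSS+CA 1 to 4, against 133, 58.0, 88.8 and 109 CPM in DSS 1 to 4. The libraries fell in nearly the same order as for Ppara, with DSS+CA 3 again among the DSS libraries. The means were 154 ± 48.4 CPM in DSS+CA and 97.1 ± 31.6 CPM in DSS, and the log2 fold change was 0.67 (95% interval -0.11 to 1.44, SE 0.353, edgeR adjusted p = 0.744). With the mean length of a counted gene as a covariate the fold changes of Ppara and Cpt1a were 0.40 and 0.33 on the log2 scale. In that fit Pdk4, Angptl4 and Creb3l3 were at 0.72, 1.21 and 0.61, farther above 0 than without the covariate. Plin2 and Vnn1 were at -0.20 and -0.82. The fit called 0 of the 7 genes and 5.89% of all genes.

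Pdk4 encodes pyruvate dehydrogenase kinase 4, which switches off pyruvate dehydrogenase and so spares glucose when fat is burned. It was at 22.8, 34.1, 145 and 52.3 CPM in DSS+CA 1 to 4, against 29.3, 70.0, 37.2 and 44.3 CPM in DSS 1 to 4. DSS+CA 3, the lowest DSS+CA library for Ppara, was by far the highest of all 8 for Pdk4, and DSS 2, the lowest of all for Ppara, was the next. The means were 63.6 ± 55.7 CPM in DSS+CA and 45.2 ± 17.7 CPM in DSS. The log2 fold change of 0.49 (95% interval -0.69 to 1.67, SE 0.537, edgeR adjusted p = 0.969) turned to -0.31 without DSS+CA 3, and the sign of the Pdk4 difference thus rests on that library.

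Angptl4 encodes a secreted inhibitor of lipoprotein lipase. It had 51.9, 86.1, 88.1 and 138 CPM in DSS+CA 1 to 4, against 32.4, 32.8, 68.8 and 44.1 CPM in DSS 1 to 4. Only DSS+CA 1 and DSS 3 crossed over, and every other DSS+CA library lay above every DSS library. The means were 91.0 ± 35.3 CPM in DSS+CA and 44.5 ± 17.1 CPM in DSS, a 2.04-fold difference (log2 fold change 1.03, 95% interval 0.21 to 1.85, SE 0.375, unadjusted p = 0.0187, edgeR adjusted p = 0.445). On the deposited FPKM and on CPM by plain library totals the groups did not overlap for Angptl4, nor did they in 3.98% of all genes, higher, on either scale. Leaving out each library in turn gave log2 fold changes of 0.76 to 1.32, with edgeR adjusted p from 0.179 (without DSS 3) to 0.9999 (without DSS+CA 4).

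Plin2 encodes perilipin 2, the coat protein of lipid droplets. It was at 46.1, 48.2, 28.4 and 51.1 CPM in DSS+CA 1 to 4, against 47.0, 30.3, 53.5 and 47.6 CPM in DSS 1 to 4. Each group had a low library, DSS+CA 3 and DSS 2, and the other 6 libraries lay between 46.1 and 53.5 CPM. The means were 43.5 ± 10.2 CPM in DSS+CA and 44.6 ± 9.98 CPM in DSS. The log2 fold change was -0.04 (95% interval -0.70 to 0.63, SE 0.302, edgeR adjusted p = 0.9995), and its sign changed with the scaling and with the library left out.

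Creb3l3 had 513, 598, 556 and 627 CPM in DSS+CA 1 to 4, against 303, 269.8, 742 and 362 CPM in DSS 1 to 4. The 4 DSS+CA libraries were close to each other, with a coefficient of variation of 8.66%, and DSS 3 was the highest library of all in a group with a coefficient of variation of 52.1%. The difference in spread was not tested. The means were 573 ± 49.6 CPM in DSS+CA and 419 ± 218 CPM in DSS, with a log2 fold change of 0.45 (95% interval -0.35 to 1.25, SE 0.364, edgeR adjusted p = 0.921). It was 0.88 without DSS 3 (edgeR adjusted p = 0.198) and 0.29 without DSS 2 (edgeR adjusted p = 0.964), the extremes over the libraries left out.

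Vnn1 encodes vanin 1, a membrane pantetheinase that makes cysteamine and pantothenate, and had the lowest fold change of the 7. It was at 53.8, 56.1, 126 and 77.1 CPM in DSS+CA 1 to 4, against 157, 159, 123 and 149 CPM in DSS 1 to 4. The DSS libraries were close together, 3 of the 4 DSS+CA libraries lay well below them, and DSS+CA 3 came just above DSS 3. The means were 78.3 ± 33.6 CPM in DSS+CA and 147 ± 16.7 CPM in DSS, a 1.88-fold lower mean (log2 fold change -0.91, 95% interval -1.63 to -0.19, SE 0.327, unadjusted p = 0.0179, edgeR adjusted p = 0.433). Leaving out each library in turn gave -1.24 (edgeR adjusted p = 0.0704, without DSS+CA 3) to -0.76 (edgeR adjusted p = 0.936, without DSS+CA 1). Without DSS+CA 3, DSS 2 and DSS 3, the libraries of shortest counted genes, it was -1.32 (edgeR adjusted p = 0.0192). This was the only call among the 7 genes in the 15 alternative fits. That fit called 6.34% of all genes, from 3 DSS+CA and 2 DSS libraries. For Vnn1 only DSS+CA 3 and DSS 3 crossed over, so leaving them out separates the groups by itself, and the call is no separate support. DSS+CA 3 was also the lowest DSS+CA library for Ppara and Cpt1a, and DSS 3 the highest DSS library for Angptl4 and Creb3l3. In those 5 libraries the groups did not overlap for Vnn1, lower, nor for Ppara, Cpt1a, Angptl4 and Creb3l3, higher, and so few libraries separated 20.9% of all genes lower and 24.5% higher. On the deposited FPKM of all 8 libraries Vnn1 did not overlap either, as 1.91% of all genes did not in that direction.

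**Figure D2:**
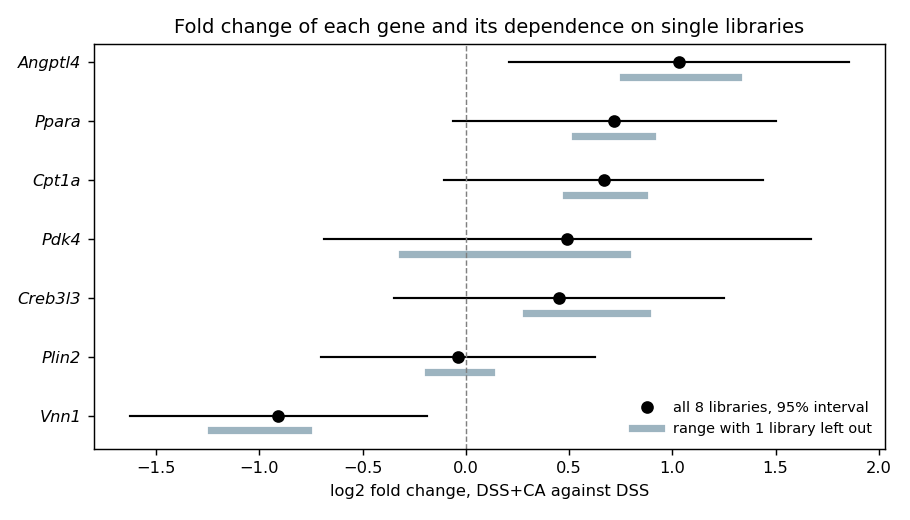
Log2 fold change of each of the 7 genes, DSS+CA against DSS, from all 8 libraries (points, with 95% intervals as thin lines) and the range of the value when each library is left out in turn (thick bars). The intervals of Angptl4 (0.21 to 1.85) and Vnn1 (-1.63 to -0.19) lie to either side of 0, and the bars of Pdk4 (-0.31 to 0.78) and Plin2 (-0.18 to 0.12) cross it.

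Marker sums of several other cell types were mostly lower in DSS+CA, not always in the library order of Vnn1. The summed T and NK cell markers (8 genes) were at 60.0, 98.3, 234 and 101 CPM in DSS+CA 1 to 4, against 278, 670, 557 and 408 CPM in DSS 1 to 4, and 3 of the 7 tested genes of that list were lower past the threshold. Paneth cell markers (6 genes) ranged from 4403 to 17391 CPM in DSS+CA and from 5802 to 37951 CPM in DSS, and goblet cell markers (7 genes) from 3617 to 7953 CPM in DSS+CA and from 7985 to 11905 CPM in DSS. In these 3 lists DSS+CA 3 was the highest DSS+CA library, as it was for Vnn1. The Paneth sum of 5802 CPM was that of DSS 1, below DSS+CA 2 to 4, although Vnn1 was at 157 CPM in DSS 1. Enteroendocrine markers (6 genes, 131 to 176 CPM in DSS+CA and 183 to 285 CPM in DSS) and tuft cell markers (5 genes, 13.8 to 21.3 CPM in DSS+CA and 19.98 to 35.4 CPM in DSS) were lower as well, with DSS+CA 3 the lowest library of all. Their part in the Vnn1 difference was not tested, and in bulk samples fewer cells of a type and less RNA per cell cannot be told apart. Adipocyte markers came almost wholly from Cidec, a lipid droplet gene, with 4446 counts in DSS+CA and 2668 in DSS, whereas Lep and Cfd had 0 counts in all libraries and Adipoq had 0 in DSS+CA and 1 in DSS. Fibroblast, endothelial and muscle markers each summed to at most 1.84 CPM in DSS+CA and 5.85 CPM in DSS.

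The 7 genes did not vary as a block across the libraries. Of the 21 pairs, 12 had a positive and 9 a negative Pearson correlation of log2 CPM over the 8 libraries. After Benjamini-Hochberg adjustment over the 21 pairs, 1 pair passed in the exact two-sided permutation test, Ppara with Cpt1a. Its Pearson's r was 0.96 (exact permutation p = 0.000223, adjusted p = 0.00469) and its Spearman's rho 0.98 (exact permutation p = 0.000397, adjusted p = 0.00833). Without the 2 libraries farthest from the median of Ppara, DSS 2 and DSS+CA 1, r was 0.91. The FPKM of Cpt1a was between 5.71 and 7.99 times that of Ppara in every library, while Cpt1a and Ppara alone ranged 5.91-fold and 6.72-fold between their lowest and highest library. On TMM-scaled CPM, the scale of the correlations, they ranged less, 3.35-fold and 3.81-fold. The next pair was Angptl4 with Creb3l3, with r = 0.85 and rho = 0.81 (exact permutation adjusted p = 0.0990 and 0.152) and r = 0.86 without DSS+CA 4 and DSS 1. Ppara and Vnn1 ran opposite, with r = -0.75 and rho = -0.81 (exact permutation adjusted p = 0.138 and 0.152). Pdk4 and Plin2 had r = -0.79 but rho = -0.29 (exact permutation adjusted p = 0.138 and 0.554). The groups of 4 libraries are too small for a correlation within each, so the difference between groups is part of these values.

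**Figure D3:**
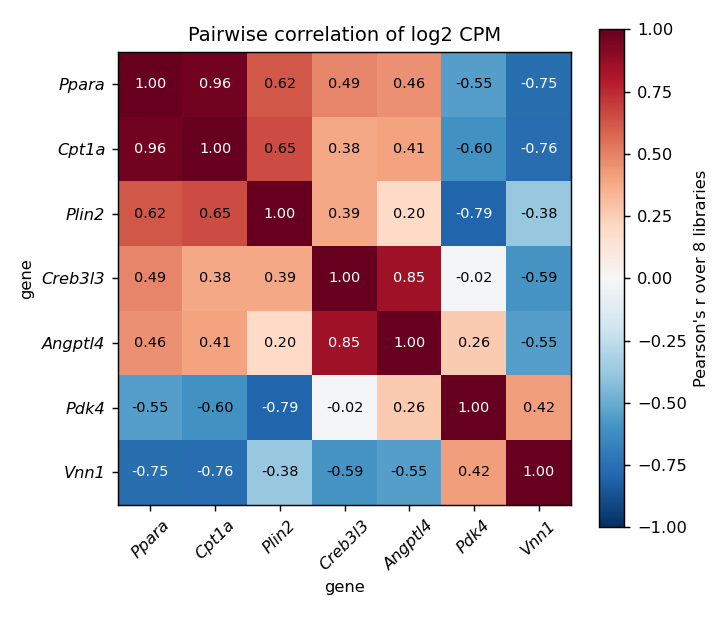
Pearson's r of log2 CPM over 8 libraries for each pair of the 7 genes, red for positive and blue for negative values. Ppara and Cpt1a (0.96) and Angptl4 and Creb3l3 (0.85) are the highest pairs, and Vnn1 is negative with every gene but Pdk4 (0.42).

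The mean length of a counted gene moved with some of the 7 genes. Over the 8 libraries its logarithm had r = 0.90 and rho = 0.93 with Cpt1a (exact permutation p = 0.00377 and 0.00223, adjusted over 7 relations 0.0264 and 0.0156), and r = 0.86 without DSS 2 and DSS+CA 1. With Ppara it had r = 0.83 and rho = 0.90 (exact permutation p = 0.00858 and 0.00456, adjusted 0.0300 and 0.0160), and r = 0.68 without the same libraries. Pdk4 ran the other way, with r = -0.73 and rho = -0.81 (exact permutation p = 0.0310 and 0.0218, adjusted 0.0723 and 0.0508). Angptl4 and Creb3l3 had r = 0.00 and -0.01 (exact permutation p = 0.999 and 0.987, adjusted 0.999 for both). What sets this length was not tested. Its part in the variation of Ppara, Cpt1a and Pdk4 was not tested beyond the fit with length as a covariate. The summed enterocyte markers were highest in the libraries of shortest counted genes, at 101455, 79920 and 81315 CPM in DSS+CA 3, DSS 2 and DSS 3, against 34944 to 51563 CPM in the other 5. Apoa4 (907269 counts in DSS+CA and 1101181 in DSS) and Fabp2 (812002 and 921306) had the most counts of that list, so the sum leans on them. Counts of such abundant genes also enter the mean length, so the sum and the length are not independent measures.

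**Figure D4:**
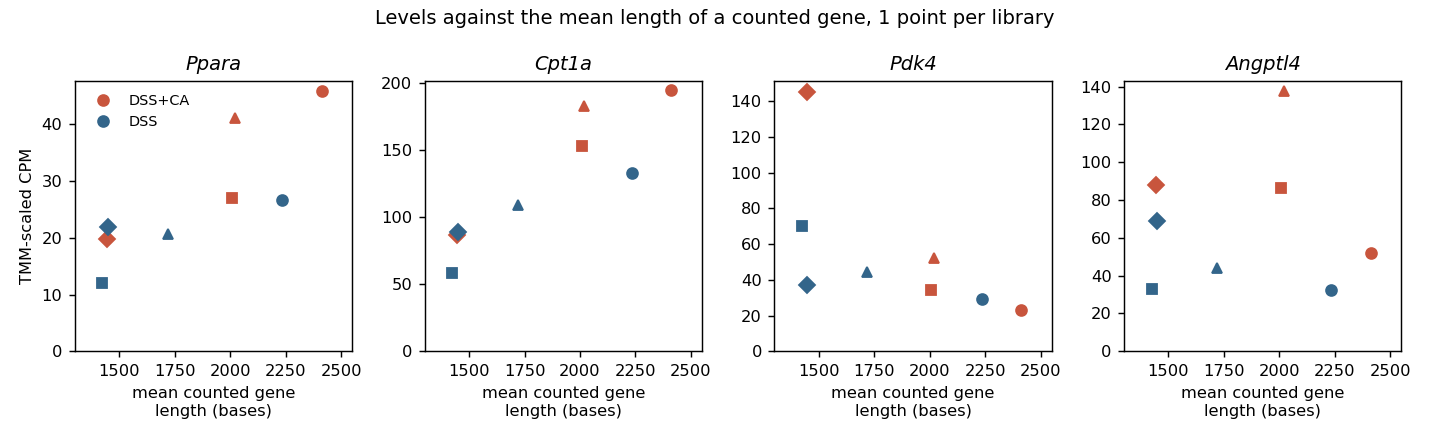
TMM-scaled CPM of Ppara, Cpt1a, Pdk4 and Angptl4 (vertical axes, linear from 0) against the mean length of a counted gene in bases, a point per library, DSS+CA in red and DSS in blue, with the same replicate symbols as in the plot of levels by library. Ppara and Cpt1a are high where counted genes are long, Pdk4 is highest at the short end in DSS+CA 3 (145 CPM), and Angptl4 follows no such order.

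The genes most like each of the 7 in pattern were ranked over all genes tested by Pearson's r of log2 CPM over the 8 libraries. For Ppara they were Ms4a18 (r = 0.98), the immediate early gene Egr1 (0.98) and the leukotriene hydrolase gene Lta4h (0.97). A search over 9913 genes returns high values in 8 libraries: 2.94% of genes had r above 0.9 with Ppara, and 0.242% (Angptl4) to 4.88% (Plin2) with the other 6. The highest mean r over the 7 was 0.41, for the amino acid transporter gene Slc6a19, with Gm20521 and Tubb2a next at 0.41. Since 9 of the 21 pairs of the 7 genes correlated negatively, no gene could have a high mean r over all of them. The low value therefore does not show whether any gene followed a pattern they share.

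The other genes of the pathway were followed through 6 lists of 96 genes beside the 7, chosen with earlier results of these data known, of which 73 passed the filter. In edgeR 0 of the 73 passed the threshold over all genes. At an unadjusted p below 0.05 there were 12 (10 higher and 2 lower), or 16.4% against 7.64% of all genes. DESeq2 called 6 (5 higher and 1 lower), or 8.22% against 2.22% of all genes. Of the 73, 41 had a log2 fold change above 0 (56.2%, against 51.9% of all genes), with a median of 0.11 against 0.02. The groups did not overlap in 8 of them, all higher in DSS+CA (10.96%, against 3.24% of all genes for that direction). A further 5 lists served for comparison, relatives of the targets, genes downstream of CREB3L3 and genes of other regulators, with 32 tested genes not in the pathway lists. Of these 32, 0 passed in edgeR, 10 had an unadjusted p below 0.05, all higher (31.3%), and DESeq2 called 5 (15.6%). Their median log2 fold change was 0.45, and 22 of the 32 were above 0 (68.8%). Apart from edgeR's threshold, these shares were larger in the comparison lists than in the pathway lists. With the mean length of a counted gene as a covariate edgeR called 11% of the pathway genes and 9.38% of the comparison genes. Without DSS+CA 3, DSS 2 and DSS 3 it called 23.3% and 21.9%. Of all genes these fits called 5.89% and 6.34%. The lists were divided after their values were seen, and the difference between them was not tested.

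Partners and relatives of the receptor had values on both sides of 0. Ppard, the widely expressed PPAR delta, was at 34.6 ± 13.1 CPM in DSS+CA and 57.4 ± 30.8 CPM in DSS (log2 fold change -0.73). Pparg, the PPAR gamma of fat cells and colon epithelium, was at 18.1 ± 1.33 CPM in DSS+CA and 11.4 ± 3.33 CPM in DSS, with no overlap of the groups (0.67, unadjusted p = 0.0421, edgeR adjusted p = 0.611). The heterodimer partners Rxra and Rxrb were at -0.02 and -0.32 on the log2 scale. Of 12 tested coregulators 9 were below 0, with a median log2 fold change of -0.22. Ppargc1a, the coactivator PGC-1 alpha that partners PPAR alpha in oxidative tissues, was at 21.6 ± 5.54 CPM in DSS+CA and 43.6 ± 15.8 CPM in DSS (-1.01, unadjusted p = 0.0140, edgeR adjusted p = 0.396). The acetyltransferase genes Crebbp and Ep300 were at -0.33 and -0.37, and Ppargc1b was at 0.25. Among 11 tested genes of fatty acid uptake and ligand supply, 6 were above 0 with a median of 0.09. The acyl-CoA synthetase genes Acsl5 and Acsl3 were at 0.63 and 0.28, the transporter Slc27a2 at 0.10, and the scavenger receptor Cd36 at -1.05.

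Among the pathway genes, those farthest above 0 were Acot1, Cyp4a10 and other genes in the lists of mitochondrial, peroxisomal and microsomal targets. Of 20 tested mitochondrial targets 13 were above 0, with a median log2 fold change of 0.33, 0 passed in edgeR, 4 had an unadjusted p below 0.05 (20%, against 7.64% of all genes) and DESeq2 called 3 (15.0%, against 2.22% of all genes). Acadl, which encodes an acyl-CoA dehydrogenase for long chains, was at 286 ± 89.2 CPM in DSS+CA and 95.5 ± 24.9 CPM in DSS (1.58, SE 0.323, edgeR adjusted p = 0.0812, DESeq2 adjusted p = 0.000803). The acyl-CoA thioesterase gene Acot2 was at 7.58 ± 2.36 CPM in DSS+CA and 2.40 ± 0.863 CPM in DSS (1.66, edgeR adjusted p = 0.124). The muscle-type relative of Cpt1a, Cpt1b, stood on the other side, at 5.94 ± 3.47 CPM in DSS+CA and 10.1 ± 5.49 CPM in DSS (-0.75, edgeR adjusted p = 0.934).

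Of 18 tested peroxisomal and microsomal targets 12 were above 0, with a median log2 fold change of 0.28, 0 passed in edgeR, 5 had an unadjusted p below 0.05 (27.8%, against 7.64% of all genes) and DESeq2 called 2 (11.1%, against 2.22%). Acot1, the cytosolic relative of Acot2, was at 21.6 ± 8.80 CPM in DSS+CA and 5.35 ± 3.70 CPM in DSS (2.02, SE 0.496, edgeR adjusted p = 0.152). Cyp4a10, a fatty acid omega-hydroxylase that is a standard readout of PPAR alpha in mouse liver, was at 6.93 ± 3.36 CPM in DSS+CA and 1.85 ± 0.889 CPM in DSS (1.91, SE 0.508, edgeR adjusted p = 0.192). Acot4, a peroxisomal thioesterase gene, was at 27.7 ± 0.525 CPM in DSS+CA and 14.6 ± 4.22 CPM in DSS (0.93), and Acaa1b, a peroxisomal thiolase gene, was at -0.50. The Acot and Cyp4a genes have close paralogs, and reads they share may be split between them. Under the filter, Acot3 had 21 counts in DSS+CA and 0 in DSS, Cyp4a31 had 21 in DSS+CA and 1 in DSS, and Cyp4a14 had 0 in both. The lipid droplet and secreted targets had 8 tested genes, 6 above 0, with a median of 0.42, 0 passing in edgeR, 1 with an unadjusted p below 0.05 and 1 called by DESeq2 (12.5% each, against 7.64% and 2.22% of all genes). The droplet gene Cidec was at 0.60, G0s2, an inhibitor of adipose triglyceride lipase, at 1.18 on 1.89 ± 1.35 CPM in DSS+CA and 0.857 ± 0.878 CPM in DSS, and Hilpda at 0.61. Apoc3, an apolipoprotein gene that PPAR alpha agonists lower in rodent liver, was at 239.6 ± 63.6 CPM in DSS+CA and 612 ± 262 CPM in DSS (-1.35, SE 0.392, edgeR adjusted p = 0.255, DESeq2 adjusted p = 0.0278). Fgf21, a fasting hormone gene of the liver, had 0 counts in both groups.

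**Figure D5:**
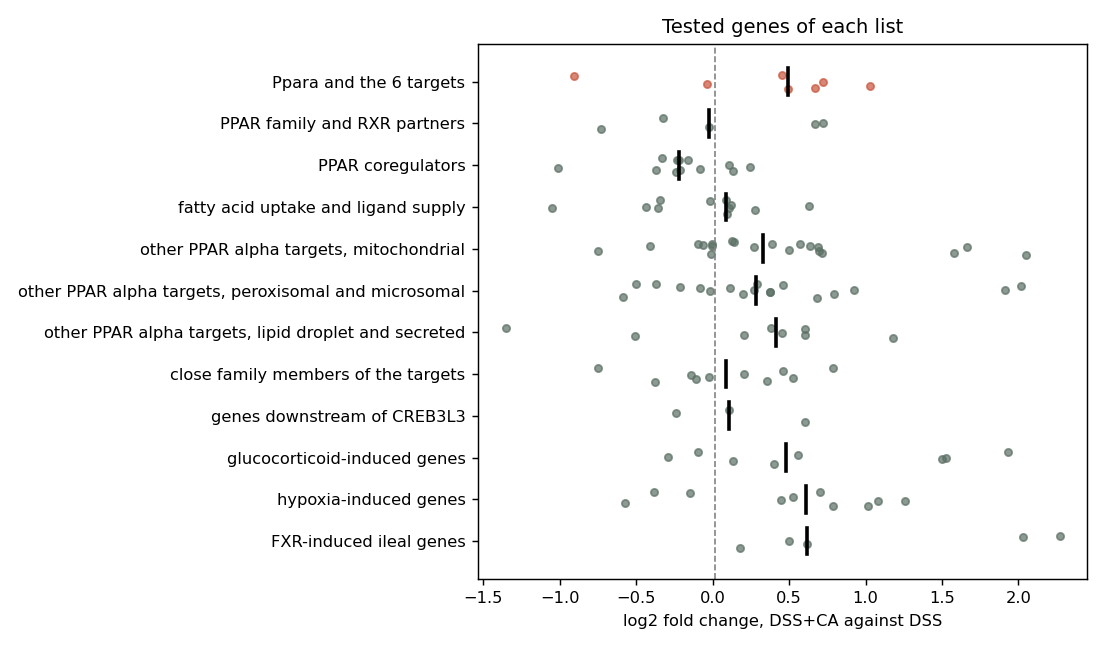
Log2 fold change, DSS+CA against DSS, of the 7 genes (red points, top row) and of every tested gene of each list (grey points), all spread vertically at random for legibility, with the list's median as a black bar and the median of all genes tested (0.02) as a dashed line. Ppara is drawn both among the 7 genes and in the PPAR family. The points farthest to the right include the FXR-induced genes Fgf15 (2.27) and Nr0b2 (2.03), Acot1 (2.02) of the peroxisomal and microsomal list, and Mt2 (1.93) of the glucocorticoid list.

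Close relatives of the 6 targets, which serve as a comparison within families, had a median log2 fold change of 0.09 over 10 tested genes, 5 of them above 0, with 0 past the threshold in edgeR, 0 at an unadjusted p below 0.05 and 0 in DESeq2. Pdk1, another pyruvate dehydrogenase kinase gene, had 42.9 ± 1.84 CPM in DSS+CA and 29.9 ± 2.001 CPM in DSS with no overlap of the groups (0.52, SE 0.241, edgeR adjusted p = 0.656), and Pdk3 was at 0.36. Gm6484, the files' name for Angptl8, another inhibitor of lipoprotein lipase, was at 0.79 on 8.72 ± 3.80 CPM in DSS+CA and 5.05 ± 3.86 CPM in DSS. Genes known to lie downstream of CREB3L3 had 3 tested members. The apolipoprotein genes Apoc2 and Apoa4 were at 0.11 and -0.24 on the log2 scale, and Apoa4 was at 16382 ± 9854 CPM in DSS+CA and 19333 ± 12155 CPM in DSS.

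Several of the targets are also induced by other regulators, Angptl4 by hypoxia and both Angptl4 and Pdk4 by glucocorticoids. Of 10 tested hypoxia-induced genes 7 were above 0, with a median log2 fold change of 0.61, 0 past the threshold in edgeR or DESeq2 and 5 at an unadjusted p below 0.05 (50%, against 7.64% of all genes). Egln3, a hypoxia-inducible factor prolyl hydroxylase gene, was at 59.4 ± 11.3 CPM in DSS+CA and 28.0 ± 10.2 CPM in DSS (1.08, edgeR adjusted p = 0.260), Car9 at 1.26, the glucose transporter gene Slc2a1 at 1.02 and Vegfa at -0.57. Of 8 tested glucocorticoid-induced genes 6 were above 0, with a median of 0.48, 0 past the threshold in edgeR, 3 at an unadjusted p below 0.05 and 3 called by DESeq2 (37.5% each, against 7.64% and 2.22% of all genes). Fkbp5, a chaperone gene of the steroid receptor, was at 222 ± 55.9 CPM in DSS+CA and 78.4 ± 33.4 CPM in DSS (1.5, edgeR adjusted p = 0.137). The metallothionein genes Mt2 and Mt1 were at 1.93 and 1.53 (edgeR adjusted p = 0.0631 and 0.139), and Tsc22d3, the glucocorticoid-induced leucine zipper gene, was at -0.29. Of 5 ileal genes that the bile acid receptor FXR induces all were above 0, with a median of 0.62 and 0 past the threshold in edgeR. Of the 5, 2 had an unadjusted p below 0.05 and DESeq2 called 2 (40% each, against 7.64% and 2.22% of all genes). Fgf15 and Nr0b2 were at 2.27 and 2.03, and the transporter Slc51a at 0.50. These lists were set beside the 7 genes as values, and their part in the values of Angptl4 and Pdk4 was not tested.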

How the data were processed

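RNA sequencing libraries of crypts were compared between DSS+CA and DSS, 4 libraries each. Libraries were TruSeq Stranded Total RNA from 200 ng each, per the labels' protocols. HISAT2, StringTie, GRCm38 and mm10 are named per the submitters' processing notes, without versions. The sources used here do not name the counting tool, its strand setting or its annotation.

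Each deposited table gives, per Ensembl gene, the raw count and the FPKM, per the file headers. The deposited FPKM equalled the count over the library total and a fixed gene length, within 1% for 17718 of 17718 genes counted in several libraries. Genes with FPKM of at least 1 in at least 4 of 8 libraries were tested.

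Counts were fitted with edgeR 4.0.16 (R 4.3.3, limma 3.58.1), with TMM scaling, robust dispersions and the group as the only term, using two-sided quasi-likelihood tests with Benjamini-Hochberg adjustment over all 9913 genes and a threshold of 0.05. SE is the absolute log2 fold change over the square root of F, and intervals are 95%. DESeq2 1.42.0, other filters, left-out libraries, a replicate block, a length covariate and plain library totals were alternatives. Correlations used log2(CPM + 0.5) and all 40320 pairings. Python 3.11.15, numpy 2.4.6, pandas 2.3.3, scipy 1.17.1 and matplotlib 3.10.9 were used.

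The members and lists were chosen with earlier results of these data known. Lists were divided into pathway and comparison lists after their values were seen. From each list the text names the genes past the threshold, or else the 3 with the smallest p in the direction most of the list takes and 1 in the other, and the 3 genes most like Ppara and most like all members. Some genes that this rule names are not reported here. Other genes named were chosen after their values were seen.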

Additional observations from a re-analysis of the deposited data

Results flagged for a closer look

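Of 48 groups of 4 libraries, 5 held a library set apart from the other 3 by most of the group's range, and chance alone flags about 1 in 20 groups. In DSS+CA the library DSS+CA 3 had the highest enterocyte marker sum, 101500.0 CPM, the highest colonocyte marker sum, 832.2 CPM, and the highest goblet cell marker sum, 7953 CPM. It also had the lowest adipocyte marker sum, 38.55 CPM, nearly all of it from Cidec. In DSS the library DSS 2 had the highest sum of B and plasma cell markers, 24.03 CPM. DSS+CA 3 was the DSS+CA library highest for Pdk4 and Vnn1 and lowest for Ppara, Cpt1a and Plin2, and the part of these marker levels in those values was not tested.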

How the results depend on the processing

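With all 8 libraries and TMM, 5 genes were higher and 18 lower in DSS+CA, with 0 of the 7 genes, 0 of the other 73 pathway genes and 0 of the 32 genes of the comparison lists among them. The higher and lower counts were 51 and 169 with DESeq2. It called 6 pathway genes (8.22%) and 5 comparison genes (15.6%), against 2.22% of all genes. With no filter they were 19 and 60 (0 pathway and 2 comparison genes), against 0.406% of all genes, and with filterByExpr 5 and 8. With the mean counted gene length as a covariate they were 274 and 310. That fit called 8 pathway genes (11%) and 3 comparison genes (9.38%), against 5.89% of all genes. The counts were 2 and 6 with plain library totals, a setting chosen after seeing the data. Without DSS+CA 3, DSS 2 and DSS 3 they were 228 and 400, with 1 of the 7 genes (Vnn1), 17 pathway genes (23.3%) and 7 comparison genes (21.9%), against 6.34% of all genes. The cause of these differences was not tested. With a replicate block the higher and lower counts were 14 and 53, and 0 of the 7 genes passed. In that fit 1 pathway gene (1.37%) and 2 comparison genes (6.25%) passed, against 0.676% of all genes. Libraries of the same number correlated at 0.77, -0.37, 0.10 and 0.22 in their deviations, and not every library correlated best with its own number. DSS+CA 3 with DSS 2, of unlike numbers, was at 0.76. Such values cannot decide whether the number pairs libraries, for instance by animal or day, and the labels do not say.

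Leaving out each library in turn gave 0 to 18 higher genes and 4 to 60 lower genes, both highest without DSS+CA 3, 0 of the 7 genes, 0 to 1 pathway genes and 0 to 3 comparison genes. The groups of 1 gene (Angptl4) were apart and higher, and of 1 gene (Vnn1) apart and lower, on CPM by library total and on the deposited FPKM, against 3.98% and 1.91% of all genes. Without the 3 libraries these counts were 4 and 1, against 24.5% and 20.9% of all genes. With each library left out they were 0 to 2 and 0 to 1, against 3.39 to 10.3% and 2.96 to 6.72% of all genes. Ppara, Cpt1a, Angptl4, Creb3l3 and Vnn1 kept their direction in all 15 alternatives. Plin2 turned to 0.030 with no filter, 0.06 without DSS 3, 0.12 without DSS+CA 3, 0.0043 without the 3 libraries and 0.19 with library totals, and ranged from -0.18 to 0.12 over left-out libraries. Pdk4 turned to -0.31 without DSS+CA 3 and -0.042 without the 3 libraries, and ranged from -0.31 to 0.78. Library totals moved the median of all genes to 0.21, against 0.02 with TMM. Depth was at least 13334012 counts per library.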

Other observations

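The deposited tables carry a KEGG annotation, which places Ppara, Cpt1a, Angptl4 and Plin2 in the PPAR signaling pathway and leaves out Pdk4, Creb3l3 and Vnn1. Of its 84 annotated genes 49 passed the filter, a list added after seeing the files. In edgeR 0 of the 49 passed the threshold, 9 had an unadjusted p below 0.05 (8 higher and 1 lower, 18.4% against 7.64% of all genes), and DESeq2 called 7 (6 higher and 1 lower, 14.3% against 2.22% of all genes). Of the 49, 27 had a log2 fold change above 0, with a median of 0.08, against 0.02 over all genes.

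The genes most like Vnn1 in pattern over the 8 libraries were Fyb (r = 0.99), an adaptor gene of T cells, Sytl3 (r = 0.98) and Mep1a (r = 0.97), the brush border metalloprotease meprin A. Mep1a had 151 CPM in DSS+CA and 449 CPM in DSS (log2 fold change -1.57, edgeR adjusted p = 0.233), and Fyb had 6.73 CPM in DSS+CA and 11.1 CPM in DSS (-0.72, edgeR adjusted p = 0.569). These genes were named after their values were seen, and no p is given for a likeness picked from 9913 genes.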
